A study of Mus musculus with 16 samples.

Results

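The 9 genes described here encode the enzymes of the pentose phosphate pathway (G6pdx, Pgls, Pgd, Rpia, Rpe, Tkt and Taldo1) together with Me1 and Idh1, which make NADPH in the cytosol by other routes. The list was chosen by gene symbol with the differences of some of these genes between the groups already known, so their values are a description and their direction is no independent evidence. All 9 were found among the 16934 genes of the deposited count table, and all 9 passed the filter on low counts that left 13139 genes. Messenger RNA was read from its 3′ end, and levels are given as CPM, a gene's count relative to the scaled library total, without division by gene length; only levels of the same gene are compared.

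The cells were C57BL/6 mouse cortical neurons taken at embryonic day 15 to 16 and grown for 14 days. Some had received Atto488-labelled fibrils of α-synuclein, the presynaptic protein that aggregates in Parkinson's disease, at 0.1 µM for 16 h, and the rest had received none. After a wash with PBS both kinds spent 6 h either alone or with microglia, the immune cells of the brain. The 4 groups, of 4 libraries each, are untreated neurons alone, neurons loaded with fibrils and kept alone, untreated co-cultures with microglia, and loaded co-cultures. All 4 groups share the strain and the culture time. No label states whether neurons and microglia were parted before RNA extraction. None states either that the libraries of a group came from separate cultures, so p-values measure the spread among libraries only, and that spread may be technical.

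The pentose phosphate pathway branches from glycolysis at glucose 6-phosphate. Its oxidative branch reduces NADP+ to NADPH, and its non-oxidative branch interconverts sugar phosphates, linking ribose 5-phosphate for nucleotides with intermediates of glycolysis. NADPH keeps glutathione and thioredoxin reduced and feeds fatty acid and sterol synthesis. In brain cultures, neurons and astrocytes both use the pathway against oxidative stress, and several of its genes are known targets of Nrf2, the transcription factor of the antioxidant response.

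Total counts were 6511516 to 13986374 per library, and libraries within a group differed widely, with a biological coefficient of variation of 1.17 over all genes. Summed markers of neurons were 2853 to 6872 CPM in untreated neurons alone, 1217 to 6904 CPM in loaded neurons alone, 923 to 2613 CPM in untreated co-cultures and 1017 to 1665 CPM in loaded co-cultures. Each of the 10 general neuronal markers, the 8 excitatory and the 12 astrocyte markers was detected in every group, whereas Dlx6, 1 of 9 markers of inhibitory neurons, was at 0 in all 16 libraries. Markers of microglia summed to 749.6 and 1509.9 CPM in replicate 1 of the untreated and of the loaded co-cultures. In the other 6 co-culture libraries they summed to 15.3 to 90.3 CPM, and in the 8 libraries of neurons alone to 17.0 to 58.5 CPM, ranges that overlap, and the microglial genes Tmem119 and P2ry12 were at 0 in all 16. Markers of the oligodendrocyte lineage summed to 1141 to 3145 CPM over neurons alone and 4323 to 10348 CPM over co-cultures. Replicate 4 of the loaded neurons alone also stood apart from the other 3 libraries of its group, with 6904 CPM of neuronal markers against 1217 to 3210 CPM. In bulk libraries, fewer cells of a type and less RNA per cell cannot be told apart.

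No enzyme passed the test over all genes in any comparison. Transaldolase (Taldo1) and glucose-6-phosphate dehydrogenase (G6pdx) had higher values in 3 of 4 libraries of loaded neurons alone than in any library of untreated neurons alone, while the fourth loaded library lay within the untreated range. The share of all genes with this pattern was not computed. In co-culture neither gene separated loaded from untreated neurons. For fibrils in neurons alone the median log2 change was 0.91 over the 3 enzymes of the oxidative branch, with 2 higher and Pgls lower. It was 0.82 over the 4 of the non-oxidative branch, with 3 higher and Rpe lower, beside -0.06 over all genes. The loaded and untreated groups did not overlap for 1 of 9 enzymes, Rpe, beside 4.24% of all genes.

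The start regions of 3 of the genes are printed because G6pdx and Me1 carry a core of the antioxidant response element, the DNA motif that Nrf2 binds, and Taldo1, on which most of the results below turn, does not in this window. Each is the 300-base RefSeq window on build GRCm38.p6, from 250 bases before the annotated start to 50 after it, written 5′ to 3′ on the gene's strand, with the motif TGACNNNGC in capitals where it occurs on either strand. The windows are chrX:74428831-74429130 for G6pdx (minus strand), chr9:86695865-86696164 for Me1 (minus strand) and chr7:141391910-141392209 for Taldo1 (plus strand).
G6pdx: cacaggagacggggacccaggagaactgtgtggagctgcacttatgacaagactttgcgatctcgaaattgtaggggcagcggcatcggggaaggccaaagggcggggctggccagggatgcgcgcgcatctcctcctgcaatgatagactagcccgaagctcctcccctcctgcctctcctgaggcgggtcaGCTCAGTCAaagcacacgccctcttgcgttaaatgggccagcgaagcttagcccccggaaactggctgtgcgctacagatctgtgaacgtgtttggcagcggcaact
Me1: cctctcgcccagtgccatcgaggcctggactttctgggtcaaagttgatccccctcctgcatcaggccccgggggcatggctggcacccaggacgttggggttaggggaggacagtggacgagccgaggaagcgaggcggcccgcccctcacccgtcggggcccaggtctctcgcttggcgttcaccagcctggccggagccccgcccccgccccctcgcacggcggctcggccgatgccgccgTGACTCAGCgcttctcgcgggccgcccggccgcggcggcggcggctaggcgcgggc
Taldo1: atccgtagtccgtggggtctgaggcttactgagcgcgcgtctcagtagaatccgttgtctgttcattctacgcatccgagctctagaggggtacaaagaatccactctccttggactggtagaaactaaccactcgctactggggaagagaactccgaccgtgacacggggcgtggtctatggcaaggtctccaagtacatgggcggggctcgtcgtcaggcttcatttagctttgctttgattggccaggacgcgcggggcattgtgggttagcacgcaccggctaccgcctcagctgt
With the start base counted as 0, the motif began at -57 in G6pdx and at -6 in Me1, as TGACTCAGC. In G6pdx the motif lies on the opposite strand, so the gene's own strand, as printed, reads GCTCAGTCA. RefSeq windows were found for all 9 genes, 12 in all, and 3 genes held the motif. The third was Pgd, in its other annotated start on chr4:149166033-149166332 (minus strand), where TGACATTGC began at 3. Over the tested genes with a window, 16.8% held the motif in at least 1 window (1753 of 10453 genes). A match of these letters is a description and no evidence of binding, and its absence from a window says nothing about sites elsewhere.

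The oxidative branch has 3 enzymes. G6pdx, which makes the first NADPH of the pathway and sets its rate, is on chromosome X (74409483 to 74429194, minus strand, build GRCm38 with GENCODE vM21). Its level was 29.7, 8.89, 15.3 and 23.0 CPM in the 4 libraries of untreated neurons alone and 113, 72.5, 107 and 16.0 CPM in loaded neurons alone. With microglia it was 23.6, 22.4, 7.77 and 42.8 CPM in untreated neurons and 14.0, 43.7, 14.2 and 49.7 CPM in loaded neurons. Replicates 1 to 3 of the loaded neurons alone were higher than all 13 other libraries, and replicate 4 lay inside the untreated range. Group means were 19.2 ± 9.07, 77.1 ± 44.4, 24.1 ± 14.4 and 30.4 ± 19.0 CPM (SD, n = 4 each), in the same order. Ikbkg lies across the whole of G6pdx on the opposite strand, and the strand setting of the count was not given in the sources used here, so reads of these genes may not be separable.

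Pgls, the lactonase that follows G6pdx, is on chromosome 8 (71592176 to 71601092, plus strand). It was at 24.7 to 58.4 CPM in untreated neurons alone and 27.8 to 42.9 CPM in loaded neurons alone. With microglia it was at 24.7 to 68.3 CPM in untreated and 17.3 to 100.5 CPM in loaded neurons. All 4 groups overlapped, and the highest library of each co-culture group, at 68.3 and 100.5 CPM, was the one rich in microglial transcripts. The gene Fam129c overlaps the 3′ end of Pgls on the same strand.

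Pgd, the dehydrogenase that makes the second NADPH and ribulose 5-phosphate, is on chromosome 4 (149149991 to 149166771, minus strand). Its level was 63.0, 70.7, 107 and 68.7 CPM in untreated neurons alone and 154, 229, 154 and 43.4 CPM in loaded neurons alone. Untreated co-cultures had 97.9, 58.7, 129.8 and 53.2 CPM, and loaded co-cultures 193, 108, 38.1 and 111 CPM. Replicates 1 to 3 of the loaded neurons alone exceeded every library of untreated neurons alone, as for G6pdx, and replicate 4 was below all of them. The value of 193 CPM belonged to the microglia-rich loaded library. Among untreated co-cultures the highest value was 129.8 CPM in replicate 3, above the 97.9 CPM of the microglia-rich replicate 1.

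The non-oxidative branch has 4 enzymes. Rpia, the isomerase that forms ribose 5-phosphate, is on chromosome 6 (70765720 to 70792232, minus strand). It was at 3.74 to 18.5 CPM in untreated neurons alone, 4.12 to 37.0 CPM in loaded neurons alone, 11.6 to 26.3 CPM in untreated co-cultures and 9.91 to 21.8 CPM in loaded co-cultures, so all groups overlapped.

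Rpe, the epimerase that forms xylulose 5-phosphate, is on chromosome 1 (66700831 to 66719805, plus strand), with a low and uneven count. Its count was 110, 83, 88 and 257 in untreated neurons alone, 20, 0, 3 and 73 in loaded neurons alone, 246, 81, 0 and 14 in untreated co-cultures, and 0, 0, 142 and 4 in loaded co-cultures. The 4 loaded libraries of neurons alone (0 to 7.0 CPM) lay below the 4 untreated ones (9.59 to 18.9 CPM), while both co-culture groups ran from 0 to above 11 CPM. Rpe was listed at 0 in 4 of 16 libraries, spread over 3 groups, and its value in loaded co-cultures rested on replicate 3, without which the log2 change with microglia in loaded neurons was -3.89 in place of 0.32. The 3′ end of Rpe overlaps that of Kansl1l on the opposite strand by 558 bases, so reads of these genes may not be separable either.

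Tkt, transketolase, and Taldo1, transaldolase, move carbon units between sugar phosphates and connect the pathway to glycolysis. Tkt is on chromosome 14 (30548359 to 30574720, plus strand). It was at 147, 78.2, 93.6 and 119 CPM in untreated neurons alone and 192, 258, 195 and 117 CPM in loaded neurons alone. Untreated co-cultures had 58.2, 67.5, 116 and 172 CPM, and loaded co-cultures 151, 132, 121 and 92.9 CPM. Replicates 1 to 3 of the loaded neurons alone were above all other libraries, and replicate 4 was inside the untreated range.

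Taldo1 is on chromosome 7 (141392199 to 141402968, plus strand), and no annotated gene overlaps it. Its level was 259.9, 203, 376 and 224 CPM in untreated neurons alone and 1099, 1114, 1001 and 345 CPM in loaded neurons alone. With microglia it was 286, 257, 458 and 660.0 CPM in untreated neurons and 479, 509.8, 581 and 494 CPM in loaded neurons. Group means were 266 ± 76.9, 889.9 ± 366, 415 ± 185 and 516 ± 45.3 CPM (SD, n = 4 each), in the same order. Replicates 1 to 3 of the loaded neurons alone were above every other library, replicate 4 fell within the untreated range, and the 4 loaded co-cultures lay close together above all 4 libraries of untreated neurons alone. The order of the means was loaded alone, loaded with microglia, untreated with microglia and untreated alone. Within this order the spread of the untreated co-cultures, from 257 to 660.0 CPM, covered the whole range of the loaded co-cultures and part of that of untreated neurons alone.

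Me1, cytosolic malic enzyme, turns malate into pyruvate and NADPH. It is on chromosome 9 (86581371 to 86695953, minus strand), where A330041J22Rik overlaps its 5′ end by 494 bases on the other strand. Its level was 289, 138, 127 and 102 CPM in untreated neurons alone and 345, 494, 172 and 113 CPM in loaded neurons alone. Untreated co-cultures had 142, 148, 114 and 305 CPM, and loaded co-cultures 86.9, 163, 90.4 and 158 CPM. The groups overlapped, and the loaded co-cultures had the lowest mean, at 124 ± 41.3 CPM against 281 ± 173 CPM in loaded neurons alone (SD, n = 4 each).

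Idh1, the cytosolic isocitrate dehydrogenase that uses NADP+, is on chromosome 1 (65158616 to 65186500, minus strand). It was at 44.8 to 196 CPM in untreated neurons alone and 20.1 to 125 CPM in loaded neurons alone. With microglia it was at 56.3 to 135 CPM in untreated and 17.8 to 144 CPM in loaded neurons. All groups overlapped, and the lowest library of each co-culture group, at 56.3 and 17.8 CPM, was the microglia-rich one, where Pgls was highest.

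**Figure D1:**
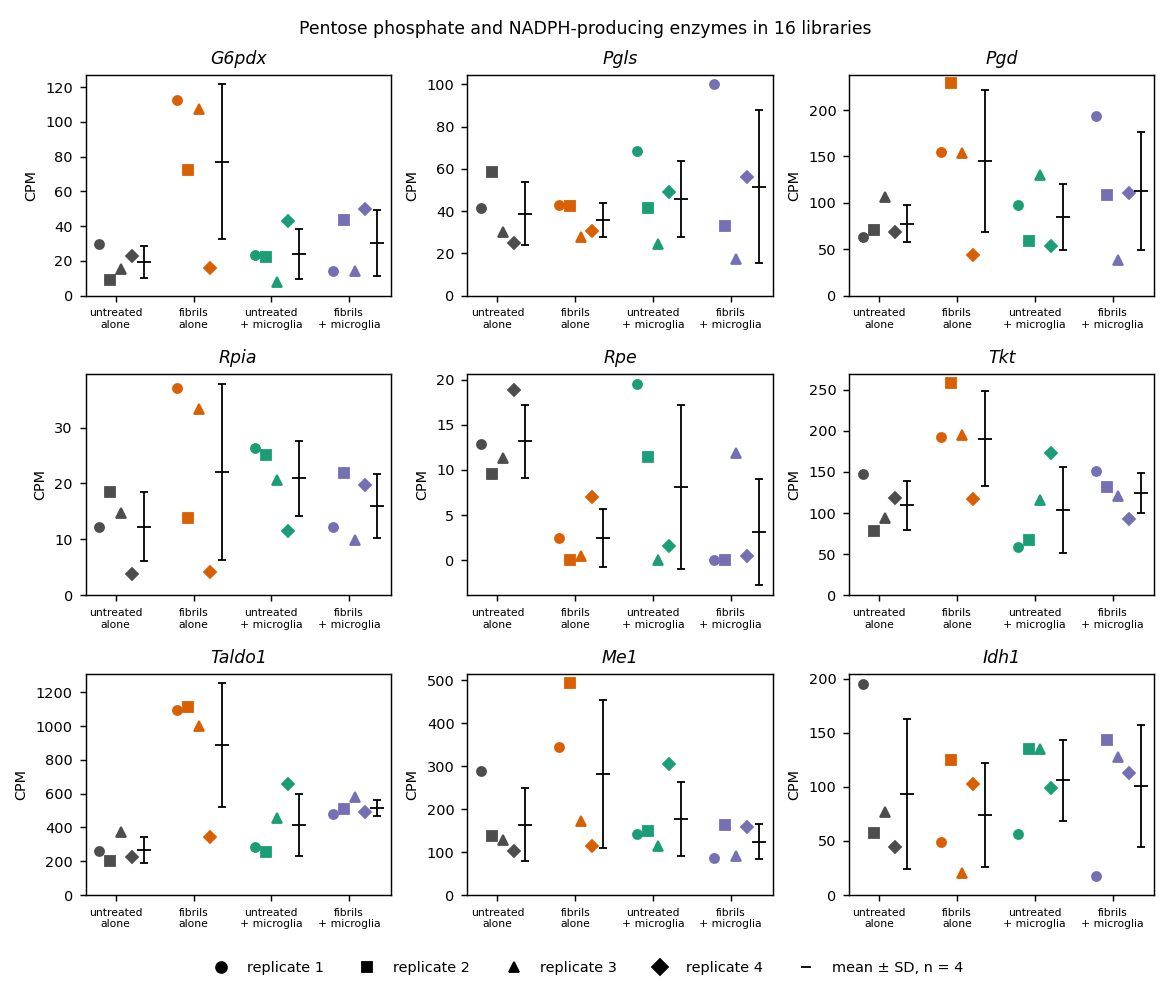
Level of each of the 9 enzymes (CPM, linear axes starting at or below 0) in the 16 libraries, with a marker shape for each replicate number and the mean ± SD of 4 libraries beside each group. Taldo1, G6pdx, Pgd and Tkt show 3 high libraries and 1 low library, replicate 4, among loaded neurons alone.

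The first comparison asks how fibrils bear on the enzymes when neurons are alone. The values of Taldo1, G6pdx, Pgd, Tkt, Rpia and Me1 were higher in loaded than in untreated neurons, and those of Rpe, Idh1 and Pgls lower, but none of the 9 passed; 47.5% of all genes were higher. The median log2 change of the 9 was 0.80, beside -0.06 over all genes tested. With p-values from the quasi-likelihood test of edgeR, adjusted over all genes (Benjamini-Hochberg), 0 of 9 enzymes were called, beside 0% of all genes. At an unadjusted p under 0.05 there were 3 of 9 enzymes, all higher (Taldo1, G6pdx and Tkt), beside 6.92% of all genes. Since the list was drawn up with these values known, nothing is read from that difference. The log2 change was 1.74 ± 0.36 for Taldo1 (SE; adjusted p = 0.371), 2.00 ± 0.68 for G6pdx (adjusted p = 0.643) and 0.80 ± 0.37 for Tkt (adjusted p = 0.697). Pgd had 0.91 ± 0.47, Rpia 0.85 ± 0.89 and Me1 0.78 ± 0.44, whereas Rpe had -2.40 ± 2.14, Idh1 -0.34 ± 0.60 and Pgls -0.11 ± 0.54 (SE; adjusted p 0.771 to 1.00). The groups did not overlap for 1 of 9 enzymes, Rpe, which was lower, beside 4.24% of all genes.

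Replicate 4 of the loaded neurons alone held the lowest value of its group for 6 of the 9 enzymes (G6pdx, Pgd, Rpia, Tkt, Taldo1 and Me1). Replicates 1 to 3 exceeded all 4 untreated libraries of neurons alone for 4 of the 9, G6pdx, Pgd, Tkt and Taldo1. The shares of all genes with these patterns were not computed, so nothing about the enzymes is read from these counts. Without replicate 4, Taldo1 had a log2 change of 2.01 (edgeR, adjusted p = 0.017) and was the 1 of 9 enzymes to pass, beside 0.0514% of all genes (7 genes). The unadjusted p was then under 0.05 for 5 of 9 enzymes, beside 10.8%, and G6pdx had 2.34 (adjusted p = 0.164). Replicate 4 held the lowest Taldo1 and G6pdx values of its group, so leaving it out raises these differences by construction. The fit without it is therefore no independent support. With DESeq2 on all libraries Taldo1 passed too (1.77, adjusted p = 0.000164), as 1 of 9 beside 1.32% of all genes, and limma-voom called 0 of the 9. Cell type markers also differed in this comparison, without passing the test: 12 of 12 astrocyte markers were higher in loaded neurons alone (median log2 change 0.57, 3 with an unadjusted p under 0.05), 10 of 10 general neuronal markers were lower (median -0.82) and 8 of 8 excitatory markers were lower (median -0.83), with 0 called in each list. Summed markers of astrocytes were at 2739 to 8305 CPM in untreated neurons alone and 3839 to 8691 CPM in loaded neurons alone. The highest astrocyte values there were 8305 CPM in replicate 1 of the untreated neurons and 8563 and 8691 CPM in replicates 1 and 2 of the loaded neurons, the 3 libraries of neurons alone with the most Me1. Of 15 markers of the oligodendrocyte lineage 11 were higher and 4 lower (median 0.58), with 0 called. In edgeR 6 had an unadjusted p under 0.05, beside 6.92% of all genes. They summed to 1141 to 2197 CPM in untreated and 1526 to 3145 CPM in loaded neurons alone. Replicates 1 to 3 of the loaded neurons were above all untreated libraries, and replicate 4, at 1526 CPM, lay within their range. The part of the astrocyte, oligodendrocyte-lineage and neuronal markers in the enzyme values was not tested.

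**Figure D2:**
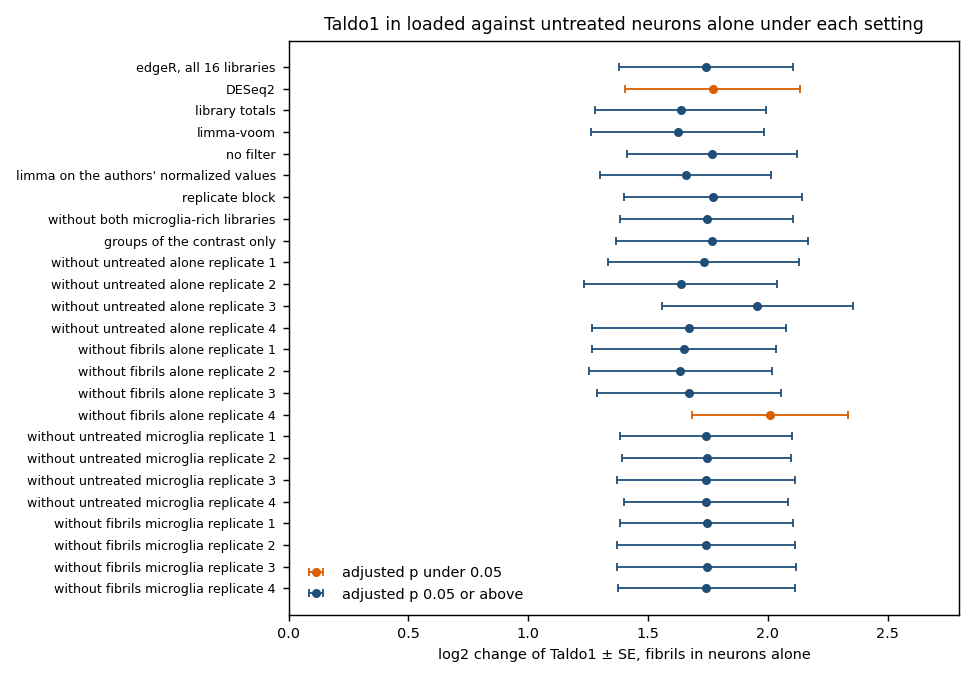
Log2 change of Taldo1 (x axis, ± SE) between loaded and untreated neurons alone under each setting of the analysis (y axis), coloured by whether the adjusted p was under 0.05. The change stayed above 1 throughout and passed with DESeq2 and without replicate 4 of the loaded neurons alone.

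The second comparison sets untreated neurons with microglia against those without. Here 7 enzymes had higher values and 2, Tkt and Rpe, lower, with a median log2 change of 0.18 beside -0.02 over all genes, of which 49.1% were higher. The edgeR test called 0 of 9 enzymes, beside 0.122% of all genes, and an unadjusted p under 0.05 was found for 0 of 9 beside 9.1%. The groups overlapped for all 9, beside 7.58% of genes that did not overlap. DESeq2 and limma-voom also called 0. Taldo1 had the largest log2 change relative to its error, 0.64 ± 0.35 (SE; adjusted p = 0.652), and Rpia had 0.77 ± 0.89 (adjusted p = 0.976). The other 7 lay between -0.69 (Rpe) and 0.33 (G6pdx). The median depended on single libraries and on the scaling: it was 0.53 without replicate 1 and 0.09 without replicate 4 of the untreated neurons alone, and 0.42 with library totals, which also moved the median of all genes to 0.19. Taldo1 was at 0.33 without replicate 4 of the untreated co-cultures and at 0.80 without the 2 microglia-rich libraries, where Pgls was at 0.00 in place of 0.25.

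The third comparison makes the same contrast in loaded neurons. Values of Me1, G6pdx, Taldo1, Tkt, Rpia and Pgd were lower with microglia than without, and those of Pgls, Idh1 and Rpe higher. The median log2 change was -0.47, beside -0.03 over all genes, of which 48.7% were higher. The groups overlapped for all 9 enzymes, beside 6.49% of genes that did not overlap. The edgeR test called 0 of 9 enzymes, beside 0.114% of all genes, and 2 of 9, Me1 and Taldo1, had an unadjusted p under 0.05, beside 11.7%. DESeq2 and limma-voom called 0 as well. The log2 change was -1.18 ± 0.44 for Me1 (SE; adjusted p = 0.316), -1.34 ± 0.67 for G6pdx (adjusted p = 0.442), -0.79 ± 0.35 for Taldo1 (adjusted p = 0.391) and -0.62 ± 0.37 for Tkt (adjusted p = 0.564). This comparison uses the same 4 libraries of loaded neurons alone as the fibril comparison above, so high values there raise one difference and lower the other. Summed astrocyte markers were at 3839 to 8691 CPM in loaded neurons alone and 1220 to 4414 CPM in loaded co-cultures, with 11 of 12 markers lower and 0 called, while 15 of 15 markers of the oligodendrocyte lineage were higher and 3 called. Their part in the enzyme values was not tested. The enzymes' median was -0.21 with library totals, where that of all genes was 0.18, -0.31 without replicate 3 and -0.79 without replicate 4 of the loaded neurons alone. Without the 2 microglia-rich libraries it was -0.73, with Me1 at -1.03, Taldo1 at -0.75 and Pgls at -0.02 in place of 0.52.

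The fourth comparison sets loaded against untreated co-cultures. With microglia present, no enzyme differed between loaded and untreated neurons by more than its error, apart from Me1, whose log2 change was -0.51 ± 0.44 (SE; adjusted p = 1.00). Taldo1 had 0.31 ± 0.35, G6pdx 0.33 ± 0.66, Pgd 0.41 ± 0.47, Tkt 0.26 ± 0.37 and Rpe -1.39 ± 2.07 (SE; adjusted p = 1.00 for each). In all 5 were higher and 4 lower, with a median of 0.17 beside -0.04 over all genes, of which 47.1% were higher. The groups overlapped for each of the 9, beside 1.94% of genes that did not overlap. The edgeR test called 0 of 9 beside 0%, with 0 of 9 beside 3.68% at an unadjusted p under 0.05, and DESeq2 and limma-voom called 0 of the 9. Without replicate 4 of the untreated co-cultures Taldo1 was at 0.63 ± 0.37 (SE; edgeR, adjusted p = 1.00), and without the 2 microglia-rich libraries the median of the 9 was -0.06.

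**Figure D3:**
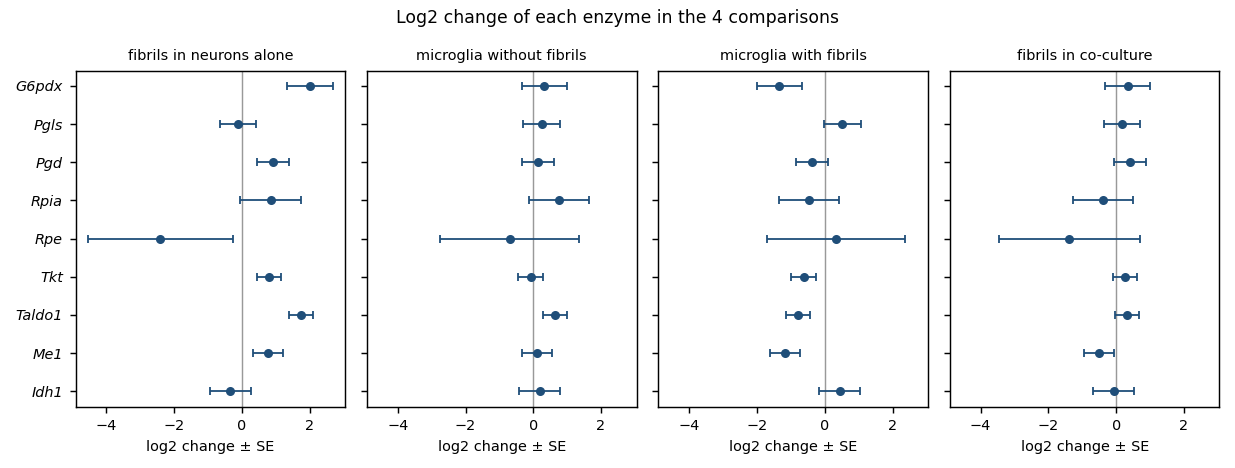
Log2 change (x axis, ± SE) of the 9 enzymes in the 4 comparisons between groups of 4 libraries. The changes of Taldo1 and G6pdx are highest for fibrils in neurons alone (1.74 and 2.00), and for fibrils in co-culture the bars of all enzymes but Me1 reach 0.

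The test of whether the fibril difference itself differed between neurons alone and co-culture called 0 of 9 enzymes beside 0% of all genes, and 1 of 9, Taldo1, had an unadjusted p under 0.05 beside 4.03%. Of the 9 enzymes 3 had an interaction above 0, beside 49.6% of all genes, and DESeq2 and limma-voom called 0 of the 9. For Taldo1 it was -1.43 ± 0.50 on the log2 scale (SE; adjusted p = 1.00), and those of G6pdx and Me1 were -1.67 ± 0.94 and -1.28 ± 0.62 (SE; adjusted p = 1.00 for both). The different sizes of the fibril change with and without microglia are therefore not shown to differ. Averaged over both kinds of culture, Taldo1 was higher with fibrils by 1.03 ± 0.25 and G6pdx by 1.17 ± 0.47 on the log2 scale (SE; adjusted p = 0.584 and 0.725), with 7 of 9 enzymes higher beside 46.6% of all genes, 0 of 9 called beside 0%, and 2 of 9 beside 6.62% at an unadjusted p under 0.05. DESeq2 called Taldo1 in this average (1.04, adjusted p = 0.00603), as 1 of 9 beside 1.96%, and limma-voom called 0. Averaged over fibril state, microglia left the 9 enzymes with log2 changes from -0.53 (Me1) to 0.38 (Pgls), with 3 of 9 higher beside 48.6% of all genes. There 0 of 9 were called beside 2.19% of all genes, and 0 of 9 beside 16.5% at an unadjusted p under 0.05. DESeq2 and limma-voom called 0 there.

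**Figure D4:**
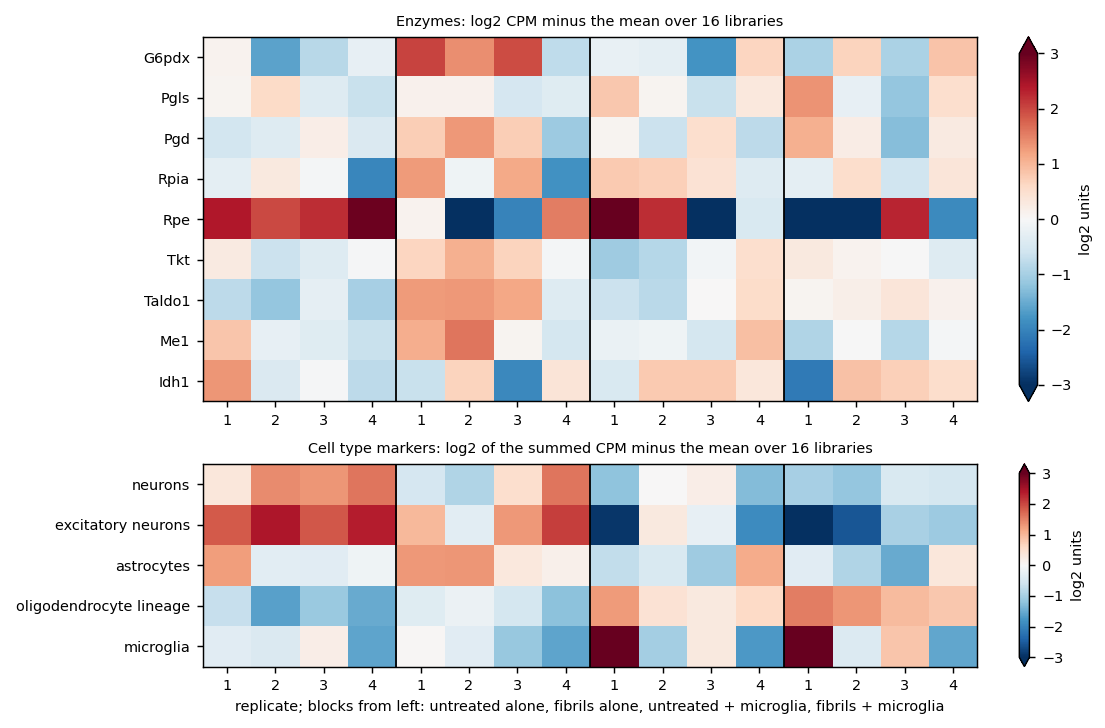
Top, log2 CPM of each enzyme minus its mean over the 16 libraries. Bottom, log2 of the summed CPM of cell type markers minus its mean, in the same column order, with black lines between the 4 groups; colours end at 3 log2 units either way. Replicate 4 of the loaded neurons alone has low Rpia, Pgd and G6pdx with high neuronal markers, and replicate 1 of each co-culture group has high microglial markers.

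Other genes of the pathway were taken from lists drawn up for this purpose with earlier results known. Their counts stand beside those over all genes, of which 47.5% were higher and 0% called for fibrils in neurons alone, 48.7% were higher and 0.114% called for microglia with loaded neurons, and 48.6% were higher and 2.19% called for microglia averaged. Of 13 further genes of pentose and ribose phosphate metabolism, 7 were tested, and 0 were called in any comparison. In loaded neurons with microglia against alone 3 were higher and 4 lower (median -0.55). Prpsap2 and Prpsap1, partners of ribose-phosphate pyrophosphokinase, had log2 changes of 1.52 ± 1.24 and -1.31 ± 0.74, Prps1, a catalytic form of that kinase, -1.04 ± 0.66, and the phosphopentomutase Pgm2 -0.55 ± 1.65 (SE; adjusted p 0.517 to 0.976). G6pd2, a copy of G6pdx whose reads could be confused with it, was in the table but below the filter.

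Of 11 other genes that make NADPH or NADP+, all were tested and 0 were called. For fibrils in neurons alone 9 were higher and 2 lower (median 0.53), and for microglia with loaded neurons 4 were higher and 7 lower (median -0.58). Aldh1l1, the folate enzyme that marks astrocytes and is also on the astrocyte list, had a log2 change of -3.0 ± 0.64 with microglia in loaded neurons (SE; adjusted p = 0.0645). Its mitochondrial relative Aldh1l2 had 1.40 ± 0.72, the mitochondrial folate enzyme Mthfd2 -0.90 ± 0.50 and glutamate dehydrogenase Glud1 -0.88 ± 0.40 (SE; adjusted p 0.395 to 0.509). Idh2, the mitochondrial relative of Idh1, was at 32.8 ± 24.6, 53.2 ± 36.0, 31.9 ± 18.5 and 35.6 ± 13.1 CPM in untreated alone, loaded alone, untreated co-culture and loaded co-culture (SD, n = 4 each), with overlap between all groups.

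Of 16 genes that use NADPH, 0 were called. For fibrils in neurons alone 9 were higher and 7 lower (median 0.39), and for microglia with loaded neurons 6 were higher and 10 lower (median -0.37). Thioredoxin reductase Txnrd1 averaged 301 ± 201 CPM without and 616 ± 293 CPM with fibrils when neurons were alone, and 261 ± 96.8 and 224 ± 99.5 CPM in the untreated and loaded co-cultures (SD, 4 libraries each). The carbonyl reductase Cbr3, the quinone reductase Nqo1 and the biliverdin reductase Blvrb had log2 changes of 1.25 ± 0.61, 2.05 ± 1.69 and 1.62 ± 1.08 with fibrils in neurons alone (SE; adjusted p 0.731 to 1.00). For microglia with loaded neurons they had -1.80 ± 0.62, -1.35 ± 1.65 and -1.14 ± 1.07 (SE; adjusted p 0.285 to 0.891). These signs are those of Taldo1 and G6pdx in both comparisons, which share the 4 libraries of loaded neurons alone. The named genes were picked by the size of their change with microglia in loaded neurons. In that comparison 6 of the 16 went the other way, as did 7 of the 16 for fibrils in neurons alone.

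Glycolysis supplies the pathway's substrate and takes up its products. Beside the pathway's entry and exit, 11 genes of hexose and triose phosphate metabolism were listed, of which Aldoc also stands on the astrocyte list. In loaded neurons with microglia against alone, 9 of the 11 were lower (median -1.18) and 2 higher. The 1 called, beside 0.114% of all genes, was Gpi1, the isomerase that competes with G6pdx for glucose 6-phosphate. Gpi1 ranged from 334 to 440.0 CPM in untreated and from 206 to 853 CPM in loaded neurons alone. In co-cultures it ranged from 119 to 295 CPM (untreated) and from 95.2 to 139.6 CPM (loaded). The loaded groups therefore did not overlap, beside 6.49% of all genes, and neither did the untreated groups, beside 7.58%. With microglia in loaded neurons the log2 change was -2.17 ± 0.38 (SE; edgeR, adjusted p = 0.0209). Averaged over fibril state, 10 of 11 were lower with microglia, where 48.6% of all genes were higher. Of the 11, 6 were called lower, beside 2.19% of all genes called in either direction, namely Gpi1 (-1.59 ± 0.26), Hk1 (-1.06 ± 0.26), Pfkm (-1.02 ± 0.24), Aldoa (-1.21 ± 0.25), Tpi1 (-1.28 ± 0.30) and Gapdh (-0.97 ± 0.24; SE, adjusted p 0.00253 to 0.0309), while 0 of the 9 enzymes were called. Whether these 11 genes and the enzymes differ in this change was not tested. Excitatory-neuron markers were lower with microglia in the same libraries, at 181 to 2012 CPM over the 8 co-cultures against 1318 to 8686 CPM over the 8 libraries of neurons alone, and their part in these falls was not tested.

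Of 15 regulators and core targets of Nrf2, 3 of which also stand among the NADPH users (Txnrd1, Nqo1 and Gsr), 11 were higher with fibrils in neurons alone (median 0.85, 0 called beside 0%), and 14 were lower with microglia in loaded neurons (median -1.43), where 48.7% of all genes were higher. The autophagy receptor Sqstm1 was the 1 called in that comparison, beside 0.114% of all genes (-1.65 ± 0.33, SE; adjusted p = 0.0399). In the average over fibril state 14 of 15 were lower with microglia, where 48.6% of all genes were higher. Sqstm1, sulfiredoxin Srxn1 and ferritin heavy chain Fth1, 3 of 15 beside 2.19% of all genes, were called there (-1.34 ± 0.23, -1.53 ± 0.32 and -1.16 ± 0.30, SE; adjusted p 0.00322 to 0.0411). Nfe2l2, the gene of Nrf2 itself, had 0.85 ± 0.67 with fibrils alone and -1.43 ± 0.68 with microglia in loaded neurons (SE; adjusted p = 1.00 and 0.427).

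**Figure D5:**
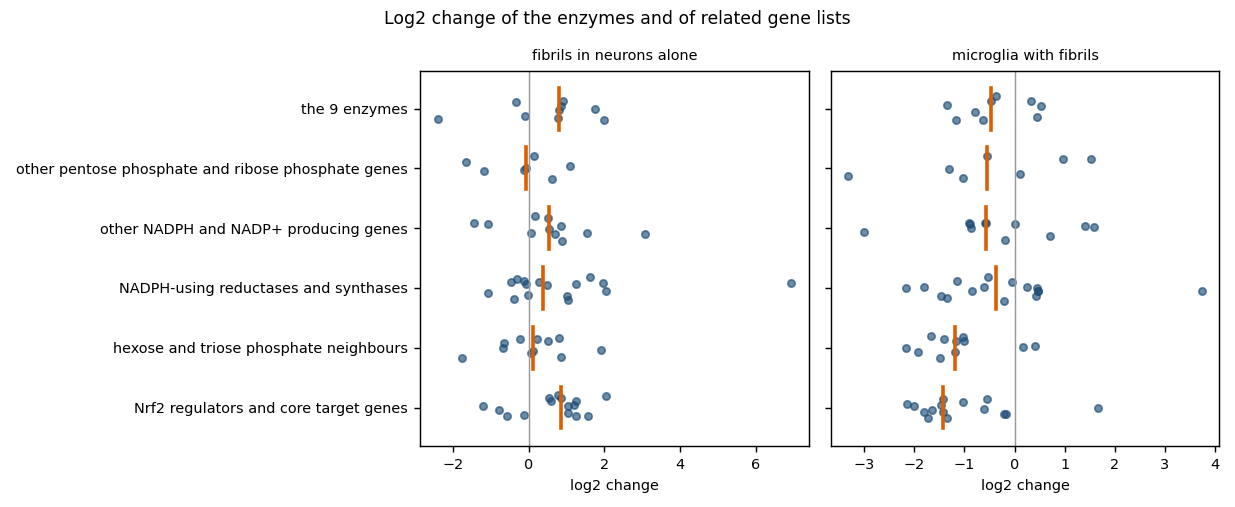
Log2 change of the 9 enzymes and of the genes of each related list (points, with small vertical jitter) for fibrils in neurons alone and for microglia with loaded neurons; orange bars are list medians. The medians of the enzymes (0.80 and -0.47) have the signs of the Nrf2 list (0.85 and -1.43), and both comparisons use the same libraries of loaded neurons alone.

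The genes whose levels followed the 9 enzymes most closely were ranked by Pearson's r, over the 16 libraries, between their log2 CPM and the mean of the enzymes' log2 CPM, each centred and scaled. Among the other tested genes, 4 of the 5 nearest were Prdx1, a peroxiredoxin (r = 0.89), Mt1, a metallothionein (0.88), the gene model Gm29508 (0.88) and Slc43a2, an amino acid transporter (0.88). Spearman's rho was 0.78 to 0.89 for these 4. The points share library, depth and the mix of cells, the genes are among the highest of all by choice, and no p is given. Prdx1 ranged from 306 to 1445 CPM and Mt1 from 2275 to 25676 CPM over the libraries.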

How the data were processed

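Expression of 9 enzyme genes was taken from 16 QuantSeq 3′ mRNA libraries of mouse neurons, 4 in each of 4 groups given by the treatment label. Per the submitters' processing notes, reads were aligned with STAR to mm10 and handled in Partek with DESeq2; tool versions, the counter, its strand setting and any molecular identifiers are not given in the sources used here. Raw counts by gene symbol were deposited, with a second deposited table of scores, which are normalized whole numbers made by the authors, of which 99.9% lay within 0.6 of the count times a constant per library. Counts totalled 6511516 to 13986374 per library, of which Rn45s took 9.35 to 26.8%.

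Counts were analysed with edgeR 4.0.16 in R 4.3.3: filterByExpr (minimum count 10, minimum total 15), TMM scaling and one robust quasi-likelihood fit of the 4 group means over all 16 libraries, with Benjamini-Hochberg adjustment over 13139 genes and a threshold of 0.05. CPM used the TMM scaling and log2 CPM a prior count of 2. Contrasts were the 4 pairs that differ in 1 factor, their interaction and 2 averages. The 9 enzymes and all lists were chosen with earlier results of these data known. From each related list, called genes were named, or else up to 4 with the largest change with microglia in loaded neurons and a mean log2 CPM above 2; Idh2, Nfe2l2 and G6pd2 were added after their values were seen. Of the 5 genes most like the enzymes in pattern, 1 is not reported here. Alternatives were DESeq2 1.42.0, limma 3.58.1 (voom, and log2 of the authors' values plus 1), library totals, no filter, the 2 groups alone, a replicate block and leaving out libraries. The count tests were tested on simulated data. Positions came from GENCODE vM21 and start regions from RefSeq, both on GRCm38, the assembly mm10 names. Tables and plots were made with Python 3.11.15, pandas 2.3.3 and matplotlib 3.10.9.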

Additional observations from a re-analysis of the deposited data

Results flagged for a closer look

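Among the 36 combinations of enzyme and group, 2 had a library set far from the other 3, by a gap over range (0.853 and 0.962) above Dixon's critical value for groups of 4. Among independent groups chance flags about 1 in 20. The 36 combinations share the same 16 libraries, so this rate cannot tell whether the 2 are due to chance. In loaded neurons alone, Taldo1 was at 345 CPM in replicate 4 against 1001 to 1114 CPM in the other 3 libraries. In loaded co-cultures, Rpe was at 11.9 CPM in replicate 3 against 0 to 0.458 CPM in the other 3.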

How the results depend on the processing

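No enzyme changed its call except Taldo1, which passed with DESeq2 for fibrils in neurons alone and for fibrils averaged over microglia (1 of 9 in each), and with edgeR without replicate 4 of the loaded neurons alone. Of 1484 recomputed enzyme values 1478 stayed within 1 SD of the main value, 3 of Rpe moved further and 3 of Taldo1 newly passed. This SD is the spread of single libraries within a group on the log2 CPM scale, not the error of a change. Many of the values leave out a library that the comparison does not use and could hardly move, so the count of 1478 is no measure of stability. The sign turned in 70 of the 1484 values, and no enzyme was called to begin with. The number of genes called over the whole table depended on the tool. DESeq2 called 173 genes for fibrils in neurons alone, 295 for microglia without fibrils, 492 for microglia with fibrils, 130 for fibrils in co-culture, 187 for the interaction, 1094 for microglia averaged and 257 for fibrils averaged, against 0, 16, 15, 0, 0, 288 and 0 with edgeR. For microglia without fibrils limma-voom called 92, no filter 26, the authors' normalized values 26, the 2 groups alone 1, and the fit without both microglia-rich libraries 0. For microglia with fibrils limma-voom called 40, no filter 26 and the 2 groups alone 0. For microglia averaged limma-voom called 662, and the fit without both microglia-rich libraries 152. The cause was not tested.

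Scaling by library totals called 50 genes for microglia without fibrils (45 higher and 5 lower, against 9 and 7), 31 for microglia with fibrils (26 and 5, against 9 and 6) and 422 for microglia averaged (339 and 83, against 160 and 128). It moved the median of all genes from -0.02 to 0.19, from -0.03 to 0.18 and from -0.03 to 0.18 there, and turned the enzymes' median for microglia averaged from -0.12 to 0.10, with 5 of 9 higher in place of 3. Leaving out 1 library gave 0 to 7 genes and 0 to 1 enzymes called for fibrils in neurons alone, 0 to 39 genes for microglia without fibrils, 1 to 27 for microglia with fibrils, 158 to 333 for microglia averaged and 0 to 1 for fibrils averaged. The enzymes' median ran from 0.60 to 1.04, 0.09 to 0.53, -0.79 to -0.31, -0.01 to 0.25, -1.07 to -0.37, -0.20 to 0.00 and 0.08 to 0.40 over the 7 comparisons, in the order given for DESeq2. Without replicate 3 of the loaded co-cultures, Rpe was at -3.89 for microglia with fibrils, -5.62 for fibrils in co-culture and -3.22 for the interaction.

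The library codes in the titles fall into 4 runs, each with 1 library of every group, and the replicate numbers follow these runs; the labels do not say what a run stands for. Of 24 pairs of libraries with the same number, 4 had deviations correlated above 0.1 (-0.11 to 0.22). Pairs from 2 groups with different numbers ran from -0.23 to 0.16, a range that overlaps. Of the 16 libraries 9 correlated best with one of their own number. A replicate block called 38 genes for microglia without fibrils, 42 for microglia with fibrils and 366 for microglia averaged, with 0 enzymes called, and Taldo1 at 1.77 for fibrils in neurons alone. Within runs, loaded exceeded untreated neurons alone in 4 of 4 for Taldo1 and Me1, 3 of 4 for G6pdx, Pgd, Rpia and Tkt, 2 of 4 for Pgls and Idh1, and 0 of 4 for Rpe. The shares over all genes were not computed and the list was chosen with its values known, so nothing is read from these counts.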
